A study of Mus musculus with 8 samples.

Results

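Of the 2099 MYSM1-FLAG peak summits deposited for this series, 588 (28.0%) belonged to 297 pairs of neighbouring summits that lay 2000 to 3000 bp apart. The members were selected on position alone: summits were sorted along each chromosome, and both summits of every adjacent pair at that distance were kept. Each pair with the sequence between its summits was treated as 1 element. MYSM1 is a deubiquitinase that removes the H2AK119ub mark, ubiquitin on a lysine of histone H2A, and is needed for blood cell development. It was mapped by chromatin immunoprecipitation and sequencing in a pair of mouse lines that stably carried triple-FLAG murine MYSM1: Ba/F3, an IL-3-dependent pro-B line, and HPC7, a multipotent progenitor line grown with stem cell factor. Both lines were kept under puromycin selection, and the labels do not mention removal of their own MYSM1. Each line gave 1 library for FLAG, 1 for H2AK119ub, 1 for H3K27ac and 1 for input, so the 8 libraries form 8 groups of 1 without replicates. The deposited list names no line and no score for a summit, and the histone and input libraries were not analysed here. All values below are therefore positions and sequences, and no signal height stands behind them.

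Retroviruses and the retrotransposons derived from them insert as a unit with a long terminal repeat at each end. The repeats flank the inner sequence in the same direction, carry promoter and polyadenylation signals, and are copied from 1 template at insertion, so that they start out alike and gather differences with time. Insertion also duplicates a few bases of the host sequence, which then stand on both sides of the element, and recombination between the repeats can leave a lone repeat behind. In blood progenitors and other cells, many such copies are silenced by histone and DNA methylation.

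The sequence most widely shared by the members was the 12-base word GGGAGATATAAA, which lay within 100 bp of 583 of the 588 member summits on either strand. It is shown first because the arms, units and elements described below rest on it. The following arms come from the pair in an intron of Kit, which encodes the stem cell factor receptor, and from the pair in an intron of Smyd3, a histone methyltransferase gene. Sequences are given 5′ to 3′ in the direction of the word, from the mm9 (NCBIM37) assembly, and capitals mark each copy of the word, called a unit below.

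Kit pair, 5′ arm, chr5:76041078-76041273, minus strand: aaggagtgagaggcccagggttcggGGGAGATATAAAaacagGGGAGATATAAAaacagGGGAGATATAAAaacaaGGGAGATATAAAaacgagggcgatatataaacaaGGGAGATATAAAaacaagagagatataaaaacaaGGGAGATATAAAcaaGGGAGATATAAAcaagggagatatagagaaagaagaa
Kit pair, 3′ arm, chr5:76038676-76038871, minus strand: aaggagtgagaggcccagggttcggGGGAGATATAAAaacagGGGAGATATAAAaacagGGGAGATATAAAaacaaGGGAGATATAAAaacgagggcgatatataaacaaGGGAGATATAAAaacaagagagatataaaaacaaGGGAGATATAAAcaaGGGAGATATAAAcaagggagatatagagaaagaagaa
Smyd3 pair, 5′ arm, chr1:181321134-181321323, plus strand: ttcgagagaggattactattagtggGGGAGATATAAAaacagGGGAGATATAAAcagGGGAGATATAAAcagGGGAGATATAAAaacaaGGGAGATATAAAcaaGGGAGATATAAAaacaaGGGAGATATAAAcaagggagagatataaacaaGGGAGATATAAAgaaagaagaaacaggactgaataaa
Smyd3 pair, 3′ arm, chr1:181323588-181323730, plus strand: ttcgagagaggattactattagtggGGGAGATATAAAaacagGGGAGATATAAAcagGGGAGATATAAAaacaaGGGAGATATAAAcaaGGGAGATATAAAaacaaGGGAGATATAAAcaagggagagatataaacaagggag

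The Kit arms printed above held 7 units each, and the Smyd3 arms held 8 units in the 5′ arm and 6 in the 3′ arm. Units followed each other in tandem, separated by a few bases, and the same run recurred at the other end of the element. Of the 297 pairs, 292 had the word at both summits (98.3%, exact 95% binomial interval 96.1 to 99.5%). In all 292 the word stood on the same strand at both summits, and in 0 pairs did it point in opposite directions. Requiring the word within 50 bp of the summit lowered the share to 89.9%. These shares describe the members only, because the word was found in their own windows.

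The distance between paired summits was narrower than the rule required. Its median was 2537 bp (quartiles 2454 and 2680, range 2031 to 2972), and 289 of the 297 pairs lay 2300 to 2900 bp apart. Just outside the limits, the nearest neighbours were 1996 bp apart at chr4:57462107-57464103 and 3067 bp apart at chr1:64674729-64677796. In the list as a whole, 7 adjacent gaps measured 1000 to 2000 bp, 7 measured over 3000 and up to 4000 bp, and 15 measured over 4000 and up to 10000 bp. The closest members lay at chr2:56705577-56707608 (2031 bp) and the farthest at chr2:148567643-148570615 (2972 bp).

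**Figure D1:**
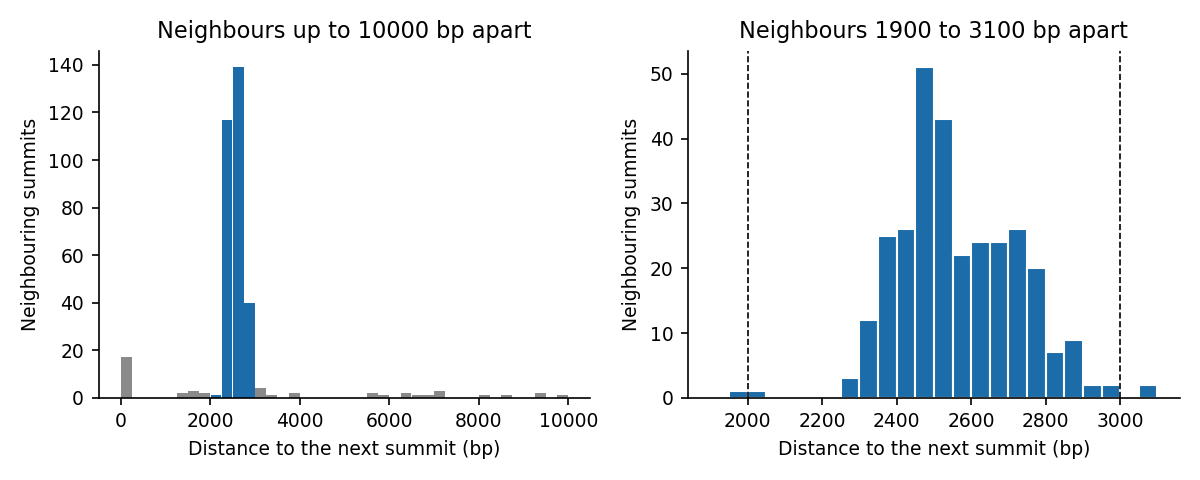
Distances from each summit to the next on its chromosome, up to 10000 bp on the left (250 bp bins, selected range in blue) and from 1900 to 3100 bp on the right (50 bp bins, dashed lines at 2000 and 3000 bp). Most selected pairs sit well inside both limits, with a median of 2537 bp.

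Most pairs had the layout of a whole insertion. The sequences around both summits aligned to each other as direct repeats, called arms here, in the 292 pairs with the word at both ends. In 285 of them the alignment ended inside the 700 bp searched on each side, and these 285 give the lengths below. The 5′ arm measured 496 bp at the median (quartiles 467 and 530, range 186 to 820), and the 3′ arm 494 bp. The whole element spanned 3050 bp at the median (quartiles 2950 and 3184), of which 2016 bp lay between the arms.

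The arms of 1 element were close to identical where they aligned base to base. Identity and mismatches were counted over aligned bases alone, so gaps such as a missing unit do not enter them. Arm identity had a median of 99.77% (quartiles 99.37 and 100, lowest 92.3), and in 83 of 285 elements (29.1%) the arms showed no mismatch. Identity reached 98% or more in 275 elements. Arms were of equal length in 150 of the 285, and 56 had arms of equal length without a mismatch. The Kit arms had 3 mismatches over an arm of 502 bp. Those of Smyd3 also had 3 mismatches, beside gaps, as their arms differ in unit number.

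A direct repeat of 6 bases outside the arms, with the element beginning in TG, was found in 231 of 285 elements (81.1%). The same search with both flanks displaced by 50 bp found 23. The 231 repeats comprised 211 different sequences. The ends of elements in introns of Kit, Prkdc (the catalytic subunit of DNA-dependent protein kinase) and Trim30a are printed because they show a different flanking repeat around nearly the same ends. Capitals mark the 6 flanking bases.

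Kit, start of the element: GTTCTGtgtggggagcgggtgtggcggcag
Kit, end of the element: ggccggtcgtgagcgcgcgcaacaGTTCTG
Prkdc, start of the element: CACTTGtgtggggagcgggtgtggcggcag
Prkdc, end of the element: ctggccagttgagcgcgcgcaacaCACTTG
Trim30a, start of the element: TCTCTGtgtggggagcgggtgtggcggcag
Trim30a, end of the element: ctggccagttgagcgcgcgcaacaTCTCTG

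These elements occupy chr5:76038599-76041504, chr16:15743811-15746633 and chr7:111564170-111567369, all on the minus strand. Among the 231 elements with an outer repeat, 183 started with TGTGGG and 36 with TGTTAG. The last bases were GCAACA in 121 and GCAAGA in 45. A CA end was seen in 156 and a GA end in 66.

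Just after the 5′ arm lies the place where retroviral elements bind the transfer RNA that primes their copying. The commonest 18-base word there was the following, with all of its bases in capitals.

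Word after the 5′ arm: TGGTGCCGAAACCCGGGA

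It is the complement of the 3′ end of phenylalanine transfer RNA, including the terminal CCA. Near the end of the 5′ arm, 152 of 285 elements held it exactly (53.3%) and 244 (85.6%) held it with at most 3 mismatches. The form TGGTGCTGAAACCCGGGA, with 1 mismatch, accounted for 57 elements. Of the 41 elements without such a match, 15 had the word ATTGGTGGCCCGTACGGG at the same place. At the other end of the inner sequence, the purine-rich word AAAAGAAAAAAGGG stood just before the 3′ arm in 249 elements (87.4%). Retroviral elements carry a purine tract at that place.

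Words like the signals of a terminal repeat also lay beside the units, given here without a share for other sequence. TATAAAAG, a TATA-box-like word, lay within 150 bp before the run in 456 of 584 arms (78.1%), at a median of 30 bp. AATAAA, the polyadenylation signal, lay within 100 bp after the run in 583 of 584 arms, at a median of 37 bp. A match of such letters describes the sequence and does not show use.

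The inner sequences formed 1 group when compared by shared 15-base words, yet they fell into distinct lengths. In 180 elements (63.2%) the inner part measured from 1800 to under 2100 bp, with a median of 1984 bp. In 87 (30.5%) it measured from 2100 to under 2400 bp, with a median of 2233 bp, and in 14 it was under 1800 bp. The remaining 4 were longer. These limits were set after the lengths had been seen.

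The longer class carried an extra block of sequence. Words found in at least 50% of the longer class and nearly absent from the middle class lay 919 to 1187 bp after the 5′ arm. The most widespread of them is shown, with all of its bases in capitals.

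Word of the extra block: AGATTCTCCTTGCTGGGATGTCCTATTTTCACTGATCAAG

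It was present in 64 of the 87 longer elements, 4 of the 180 middle ones and 0 of the 14 short ones. The longest reading frame from ATG to a stop in the inner part reached 250 codons in 42 of 87 longer, 4 of 180 middle and 0 of 14 short elements. Over all 285 elements its median was 148 codons and its maximum 381, which is shorter than the gag and pol frames of an intact retrovirus. The medians of arm identity (99.79% and 99.73%) and of units in the 5′ arm (6 and 6) were close in both classes.

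The short class had longer arms, with a median of 737 bp for the 5′ arm against 496 bp in the middle class. In all, 19 elements had a 5′ arm of 650 bp or more. The phenylalanine transfer RNA word with up to 3 mismatches was found in 1 of these 19 and in 243 of the 266 with shorter arms. Arm identity was 99.87% at the median in the 19 elements and 99.75% in the others.

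The distance between summits, on which the members were selected, holds the inner length as its largest part. Across the 285 elements Pearson's r was 0.77 between distance and inner length and 0.15 between distance and 5′ arm length. The first value is set in part by that overlap, and both describe copies that share sequence. Median distances were 2489 bp in the middle class and 2721 bp in the longer class.

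**Figure D2:**
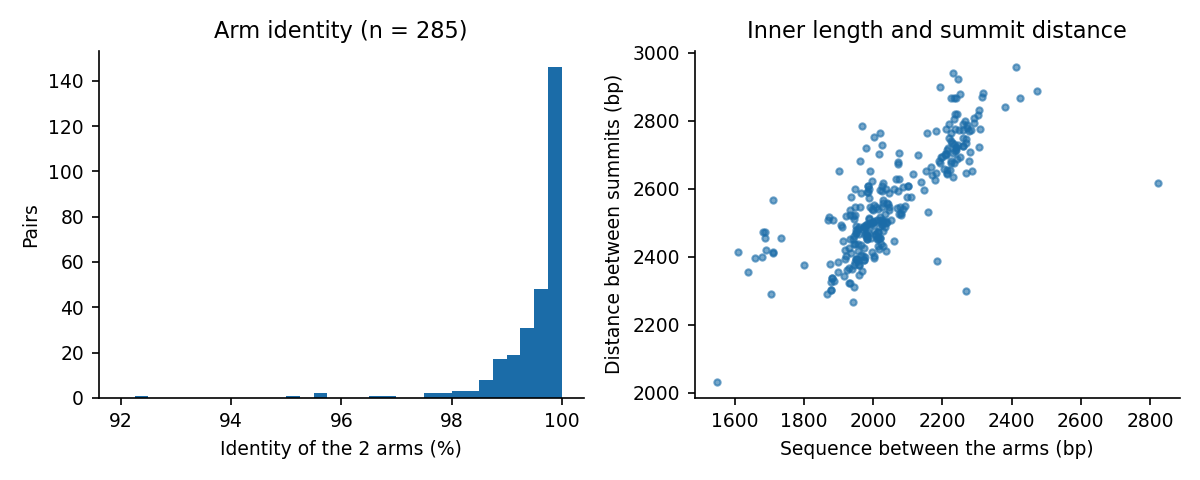
Left, identity of both arms of each of 285 elements in percent of aligned bases, gaps not counted, with a median of 99.77%. Right, distance between the paired summits against the sequence between the arms, both in bp, 1 point per element, in which the middle (median 1984 bp) and longer (median 2233 bp) inner lengths form separate clouds.

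Most summits lay on the units. In 590 placements of a member summit at an arm, the summit stood at a median of 6 bp from the middle of the run of units, measured downstream (quartiles -25.4 and 48.9). It lay inside the run in 445 of the 590 (75.4%) and within 100 bp of its middle in 562. The word was chosen within 100 bp of these summits, and a placement required a run within 100 bp. Nearness to the run is thus set in part by that choice. In the 5′ arm 62 of 295 summits lay 50 bp or more downstream of the middle, and in the 3′ arm 83 of 295. Far fewer lay as far upstream, 22 in the 5′ arm and 18 in the 3′ arm. The positions in both arms of a pair differed by 20 bp at the median, and by at most 50 bp in 231 of 293 pairs.

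**Figure D3:**
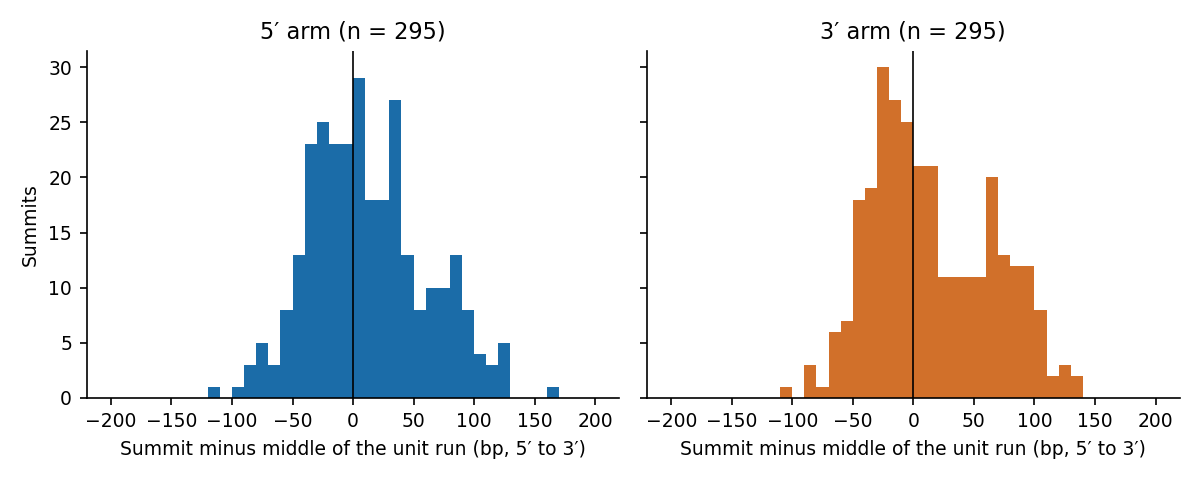
Position of each member summit relative to the middle of the run of units at its arm, in bp along the direction of the word (10 bp bins), for 295 summits at 5′ arms and 295 at 3′ arms. Both distributions centre near 0, with a shoulder downstream.

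Arms of the members held 6 units at the median (quartiles 5 and 8), with a range of 1 to 19 in the 5′ arm and 1 to 18 in the 3′ arm. Both arms had the same number in 215 of 292 pairs, the 5′ arm had more in 42 and the 3′ arm more in 35. Esr1, the estrogen receptor alpha gene, hosted a pair below the lower quartile. Ppp2r5a, which encodes a regulatory subunit of protein phosphatase 2A, hosted a pair above the upper quartile. Their 5′ arms are printed as examples of fewer and more units, with the units in capitals.

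Esr1 pair, 5′ arm, chr10:5411012-5411092, minus strand: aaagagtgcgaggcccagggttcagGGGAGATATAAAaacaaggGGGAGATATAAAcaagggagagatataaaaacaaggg
Ppp2r5a pair, 5′ arm, chr1:193209473-193209705, plus strand: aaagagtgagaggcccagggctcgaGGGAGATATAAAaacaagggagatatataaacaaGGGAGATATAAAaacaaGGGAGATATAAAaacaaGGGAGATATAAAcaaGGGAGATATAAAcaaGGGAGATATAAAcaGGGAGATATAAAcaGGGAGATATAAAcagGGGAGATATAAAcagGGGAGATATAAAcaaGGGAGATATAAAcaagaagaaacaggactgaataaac

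The printed Esr1 arm has 2 units and its partner 3. The Ppp2r5a arm has 11 and its partner 10.

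The genome was then searched for every run of the word, with or without a summit. The choice of members did not use this search, but the word itself was taken from their windows. Runs, elements and unit counts below rest on exact copies of that word, so they are not a reference independent of the members. There were 3149 runs, of which 1377 belonged to 694 elements with arms 2000 to 3000 bp apart on 1 strand and 1772 stood alone. A single copy of the word counted as a run, and 1123 of the runs that stood alone held 1 unit. Whether such single copies derive from these elements was not tested. A summit lay within 100 bp of 927 of the runs. Of the 694 two-arm elements, 293 had a summit at both arms (42.2%, 38.5 to 46.0), 118 at 1 arm (17.0%) and 283 at neither (40.8%). Summits at neither arm were thus about as frequent as summits at both.

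The share of elements with a pair was higher in each class with more units, which is a description without a test. A pair was present in 1.27% of 79 elements with 2 to 3 units in both arms together, 7.32% of 82 with 4 to 5 and 12.8% of 109 with 6 to 7. It was present in 37.1% of 97 elements with 8 to 9 units, 53.8% of 93 with 10 to 11 and 74.6% of 138 with 12 to 15. With 16 or more units it reached 86.5% of 96. Median units per element were 12 with a summit at both arms, 8.5 with a summit at 1 arm and 6 without a summit.

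**Figure D4:**
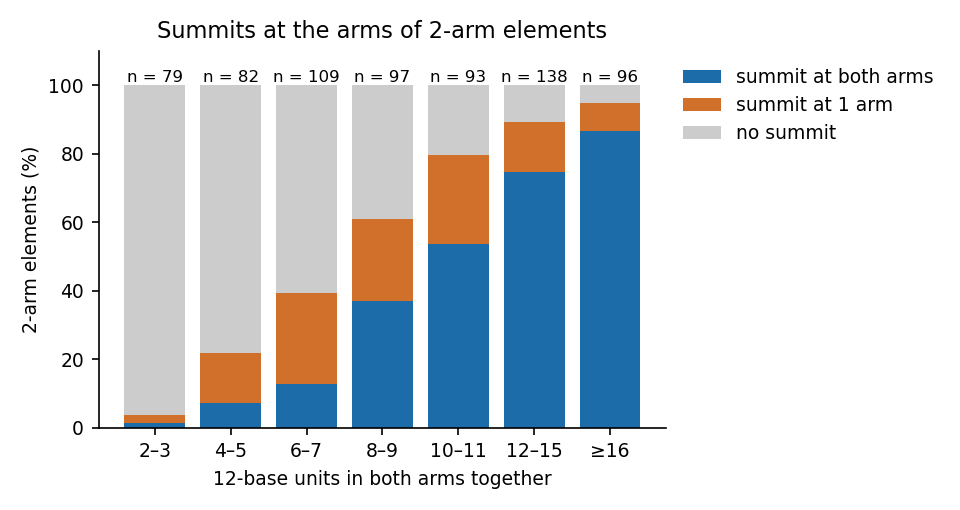
Two-arm elements of the genome by the number of units in both arms together (x axis, number of elements above each bar) and the percentage with a summit at both arms, at 1 arm or at none (y axis). The share with both rises from 1.27% in the first bar to 86.5% in the last.

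The same held within elements. In the 118 elements with a summit at 1 arm, that arm had more units than its partner in 36, fewer in 4 and an equal number in 78. The excess among the 40 unequal elements gave p = 1.86e-07 in an exact two-sided sign test. The summit lay at the 5′ arm in 66 and at the 3′ arm in 52, a split that did not pass the test (exact binomial p = 0.231).

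Arms in pairs of arms were compared with lone arms, meaning runs without a partner run on the same strand at the distance set above. An arm whose partner lay nearer or farther, or held no exact copy of the word, also counted as lone. Whether recombination left the lone arms behind was not tested. Among arms with 4 or more units, 625 of 848 in two-arm elements (73.7%, 70.6 to 76.6) and 185 of 290 lone arms (63.8%, 58.0 to 69.3) had a summit. The odds ratio was 1.59 (Fisher's exact test, two-sided, p = 0.00159). Both arms of an element are near copies, and counting the 5′ arm alone gave an odds ratio of 1.77 (exact p = 0.00076). By unit number, the shares in elements and in lone arms were 58.0% and 51.1% at 4 to 5 units, and 81.3% and 72.2% at 6 to 7. They were 91.5% and 79.4% at 8 or more units. The class of 1 unit had 1.34% of 149 arms in elements, the 2 arms of 1 element, against 0 of 1123 lone arms. With both arms counted, the classes of 1 unit and of 8 or more units passed Fisher's exact test after Benjamini-Hochberg adjustment over 6 classes (adjusted p = 0.0409 for each). With the 5′ arm of each element alone none of the 6 classes passed. In that count the class of 8 or more units had 92.8% of 97 against 79.4% of 63 (adjusted exact p = 0.0909, unadjusted 0.0152), and that of 1 unit had an adjusted exact p of 0.106. The comparison with lone arms was added after the data had been seen. All copies share sequence, so the loci of this and the following tests are not fully independent.

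**Figure D5:**
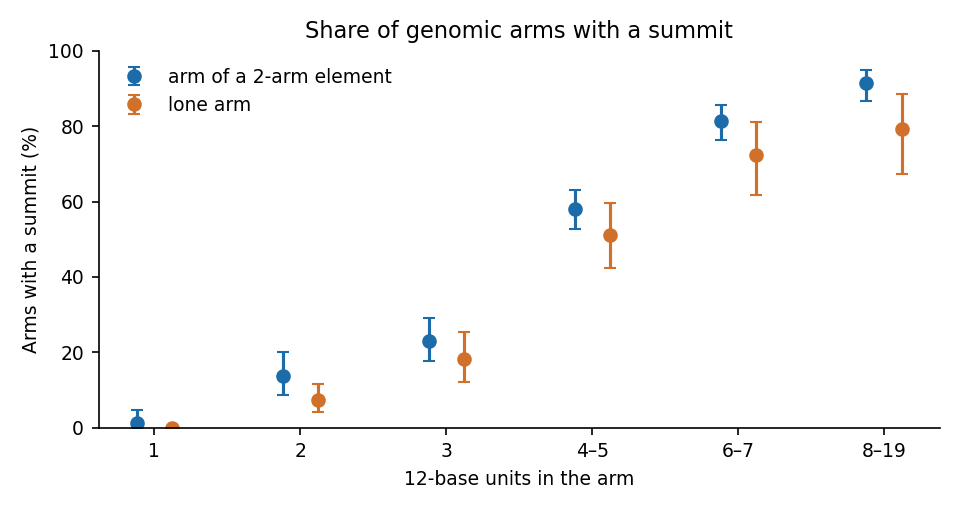
Percentage of genomic arms with a summit within 100 bp (y axis) by the number of units in the arm (x axis), for arms of two-arm elements and lone arms. Points are shares and bars exact 95% binomial intervals, and the shares at 8 or more units are 91.5% and 79.4%.

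Arm identity also differed with the presence of a pair. Of the 694 elements, those at or above the median identity of 99.6% carried a pair in 181 of 347 (52.2%), against 112 of 347 below it (32.3%). The odds ratio was 2.29 (Fisher's exact test, two-sided, p = 1.57e-07). Within elements of 8 or more units the shares were 69.1% and 57.3% (exact p = 0.0139), and under 8 units 10.9% and 5.92% (exact p = 0.162). Units still ranged from 8 to 37 in the upper class, across which the share with a pair rose from 37.1% to 86.5%. Identity was therefore not separated from unit number. Median identity was 99.77% in elements with both summits, 99.54% with 1 and 99.42% with none. An outer 6-base repeat was found in 79.2%, 77.1% and 76.7% of them.

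The sequence under the members is repeated across the genome, and the flanks are not. The 31-base words within 100 bp of a member summit occurred 330 times in the genome at the median (quartiles 122 and 511), and the median was 1 in 3 of 588 windows. In windows from the middle of the inner part the median was 88 copies. In windows just outside the elements it was 1 copy on either side, and 74.0% of left and 75.4% of right flanks had a median of 1. Arms of two-arm elements with both summits, 1 summit and none had medians of 340, 315 and 202 copies. The sources used here do not say how reads with many placements were handled, so reads from a summit's own copy and reads from other copies cannot be told apart.

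Placement relative to genes was read from the GENCODE M1 annotation. A pair was called exonic if a summit lay in an exon, and otherwise intronic if its midpoint lay in any annotated gene. Of the 297 pairs, 211 (71.0%) were intergenic, 84 intronic and 2 exonic by that rule. So 86 (29.0%, 23.9 to 34.5) lay in an annotated gene, of which 70 lay in a gene that extended beyond the element. Single summits were scored at their own position, where 718 of all 2099 (34.2%) lay in a gene. The share of pairs was lower than among the 1511 summits outside pairs (578, 38.3%, odds ratio 0.66, Fisher's exact test adjusted over 3 comparisons, p = 0.00709). It was also lower than among the 593 unpaired summits at runs of AAAGG (38.6%, odds ratio 0.65, adjusted exact p = 0.00709). Among two-arm elements the direction was opposite. There 28.3% with summits at both arms and 24.0% with none lay in a gene (Fisher's exact p = 0.256). For protein-coding genes alone the shares were 22.5% and 15.5% (Fisher's exact p = 0.0345).

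Against the 351 unpaired summits with the same 12-base word (20.8%), the share of pairs in a gene was higher, with an odds ratio of 1.55 (adjusted Fisher's exact p = 0.0174). A pair was scored at its midpoint and an unpaired summit at its own position, so these shares rest on unlike points. Annotations of the elements themselves also enter the count of pairs. In 19 pairs the midpoint lay in an annotated gene contained wholly within the element, all of them non-coding or pseudogene models of 166 to 1731 bp on the strand of the element. With protein-coding genes alone, 67 of 297 pairs (22.6%) and 70 of 351 unpaired summits (19.9%) lay in a gene, an odds ratio of 1.17 (adjusted exact p = 0.441). Of the 351 unpaired summits with the word, 124 lay at an arm of a two-arm element and 227 at a lone arm.

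Element and annotated gene ran in the same direction in 44 of 83 pairs with genes on 1 strand (53.01%, exact binomial p = 0.661). That count includes models inside the element, whose strand is the element's own. Without them the same direction was seen in 28 of 68 (41.2%, 29.4 to 53.8, exact p = 0.182), and among protein-coding hosts in 28 of 67 (41.8%, exact p = 0.222). None of these splits passed the test.

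Members lay near promoters less often than summits outside pairs. Each summit was counted here, not each pair, so both summits of an element enter the interval and tests as separate loci though they are linked. Within 1000 bp of an annotated transcription start site (TSS) lay 12 of 588 members (2.04%, 1.06 to 3.54), where the share among all summits is 7%. The share among summits outside pairs was 8.93% (odds ratio 0.21, Fisher's exact test adjusted over 3 comparisons, p = 4.55e-09). The size of this difference moved with the distance: the odds ratio was 0.07 within 500 bp, 0.66 within 2000 bp (9.01% against 13.0%, adjusted exact p = 0.0319) and 0.64 within 5000 bp. Against unpaired summits with the word (3.13%, adjusted exact p = 0.383) and at AAAGG runs (3.54%, adjusted exact p = 0.235) the difference did not pass the test. Of the 12 members, 4 were nearest to a protein-coding TSS, 5 to a pseudogene, 2 to a processed transcript and 1 to a snoRNA. The nearest protein-coding TSS was 78718 bp away at the median pair (quartiles 19031 and 257875).

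The 10 pairs nearest to a protein-coding TSS included several known genes. The Kit pair, at chr5:76038729-76041114, ended 608 bp from a TSS at position 76041722 inside the gene, which spans 75970941 to 76052747 on the plus strand. The element lay in an intron on the opposite strand. The pair at chr6:83955201-83957723 ended 861 bp upstream of Dysf, which encodes the muscle membrane repair protein dysferlin. It had 4 units in each arm. The pair at chr7:34877188-34879708, with 9 units in each arm, ended 742 bp upstream of Gm12776.

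Annotated transcripts of 2 protein-coding genes started inside an element, both on its strand. One is Esr1, with a TSS at 5410015 within the element at chr10:5408498-5411327. The other is Trim30a, a TRIM family gene of innate immunity, with a TSS at 111565442 within the element at chr7:111564170-111567369. Further pairs lay 1204 bp from AY761185, 1429 bp from the olfactory receptor gene Olfr1220 and 1752 bp from Phyhipl. Vmn1r149, a vomeronasal receptor gene, followed at 2020 bp and Wdr17 at 2102 bp. Whether any of these transcripts differ in level was not tested.

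Protein-coding hosts were long genes. The 67 pairs in such genes had 64 hosts of 22225 genes (0.288%), with a median length of 222 kb against 15.5 kb for all protein-coding genes. Lengths of genes that hold other summits, or elements without a summit, were not compared, so this length is not a trait particular to pairs. Hosts among the lists for these cell types were few. Pairs lay in 0 of 32 hematopoietic transcription factor genes, 1 of 25 progenitor receptor and signalling genes (Kit) and 0 of 18 p53 pathway genes. They lay in 1 of 28 genes for histone modifiers and silencers of repeats (Smyd3) and 0 of 78 cytosolic ribosomal protein genes.

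A few genes held more than 1 pair. Prkdc held pairs at chr16:15743941-15746206 and chr16:15823533-15826001, both opposite to the gene and both with arms free of mismatches over aligned bases. The arms of the latter held 6 and 5 units. Sorcs3, a sorting receptor gene of neurons, held linked pairs at chr19:48816390-48821277.

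In 5 places, 3 or more summits followed each other at the member distance, which accounts for 11 of the 297 pairs. The longest run had 4 summits at chr1:147374811-147382851, with steps of 2702, 2677 and 2661 bp and 7 units at every arm. Its alignments reached beyond 1 arm, as the inner sequence was repeated too. The arm shown here recurred with the same letters at all 4 summits, with units in capitals.

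First arm of the run, 5′ arm, chr1:147374701-147374911, plus strand: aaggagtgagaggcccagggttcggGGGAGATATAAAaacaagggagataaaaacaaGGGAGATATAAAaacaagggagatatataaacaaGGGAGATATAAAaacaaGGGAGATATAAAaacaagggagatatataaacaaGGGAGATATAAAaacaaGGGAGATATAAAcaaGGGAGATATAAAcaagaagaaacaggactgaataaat

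The other runs had 3 summits each, on chromosomes 2, 9, 13 and 19. Counting each run once left 291 pairs.

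Of the 5 pairs without the word at both summits, those reported here are named because they fell outside the rule for the word. At chr2:148567643-148570615 and in Sorcs3 at chr19:48816390-48818768, each a member of a linked run, 1 summit lay in a purine- or pyrimidine-rich tract. At chr6:42923931-42926513 the run of 2 units at the 5′ arm ended 99 bp from the summit, so that no unit lay wholly within 100 bp. At chr5:78684254-78686755 both arms held 3 units, and the run at the 3′ arm ended 106 bp from its summit.

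Binding-site words of other factors were counted under the members. Within 50 bp, the word AGATAA of the GATA factors lay at 29 of 588 members (4.93%) against 4.53% of all 2099 summits, and CCAAT (NF-Y) at 10 (1.70%) against 3.62%. The ETS word CCGGAAG lay at 0 members. The cyclic AMP response word TGACGT, the AP-1 word TGANTCA and the SP1 word GGGCGGG also lay at 0. The same count of 0 was found for the E-box CACGTG, for the RUNX word TGTGGT and for the YY1 word AGATGGC. Over all summits these 7 ranged from 0.191% for the cyclic AMP response word to 2.24% for the RUNX word. The 351 unpaired summits with the shared word had counts close to these, with AGATAA at 4.27%, CCAAT at 1.99% and TGACGT at 1 summit. The other 6 words lay at 0 of them. Words were sought on both strands. Copies share their letters, so such counts describe 1 sequence seen many times.

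Pairs were found on 20 chromosomes and on every autosome. Chromosome 1 had 32 (1.44 times the number expected from its sequenced length) and chromosome X had 29 (1.54 times). Exact binomial tests with Benjamini-Hochberg adjustment called 0 of 21 chromosomes, 2 of which (1 and X) had an unadjusted p under 0.05 (0.0359 and 0.0226). Relative to the family itself, 29 of 81 two-arm elements on X (35.8%) carried a pair, and 32 of 67 on chromosome 1 (47.8%). On chromosome 18 it was 14 of 23 (60.9%), and over all two-arm elements 42.2%. The first and last pairs of X lay at chrX:3490366-3492830 and chrX:156718305-156721171. Those of chromosome 1 lay at chr1:6681066-6683758, in an intron of St18, and at chr1:193209553-193212161, in the Ppp2r5a intron. Chromosome 18 had 14 pairs, from chr18:3217072-3219584 to chr18:90665156-90667459.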

How the data were processed

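The deposited file lists MYSM1-FLAG summits as positions on mm9, without a score. The submitters' processing notes name Bowtie 1.0.0, an aligner, and MACS 1.4.1, a peak caller. The sources used here do not give thresholds, controls, the placement of reads that match several loci, any pooling of lines, or the base from which positions count. All 2099 positions were used.

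Pairs were found in Python 3.11.15. Sequences were read from NCBIM37 (mm9) with pysam 0.24.0, and genes from GENCODE M1. The shared word was the 12-base word held by most member windows of 100 bp on each side. Runs joined units at most 200 bp apart. Arms were aligned with Biopython 1.88 over 700 bp on each side, and the outer repeat was sought within 15 bp of the alignment's ends. Shares were compared by two-sided Fisher's exact, binomial and sign tests (scipy 1.17.1), with exact 95% (Clopper-Pearson) intervals, which cover counting error only. AAAGG runs held at least 4 perfect units.

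Functions were checked on simulated elements. The members, gene lists and tests were chosen with earlier results of these data known. Pairs were named where the word was missing at a summit, where they were among the 10 nearest to a protein-coding TSS, where they lay in a listed gene, at both ends of the distance range, in linked runs, and as the first and last of the 3 chromosomes with most pairs per length. Hosts of several pairs were added to that rule after the results were seen, as were the inner size classes, and linked runs of 3 summits. Alternatives covered distance limits, summit windows, mismatches, gene types, TSS distances, autosomes and linked runs. A stricter peak threshold could not be tried, as the list holds no score. Some pairs that the naming rule covers are not reported here.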

Additional observations from a re-analysis of the deposited data

How the results depend on the processing

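No paired analysis was possible because each group has 1 library and the list has no sample columns, so leaving out a replicate was not possible either. Of the alternatives with a test, 24 kept direction and side of the threshold, and 11 values without a test moved by less than their limit. The word at both summits fell to 89.9% of pairs when it had to lie within 50 bp, and the cause was not tested. The odds ratio for pairs in a gene against unpaired summits with the word fell from 1.55 to 1.17 with protein-coding genes alone, which leaves out models inside the elements. In both counts a pair was scored at its midpoint and an unpaired summit at its own position. The odds ratio for promoters against AAAGG runs turned from 0.57 to 1.18 at 2000 bp from a TSS, and neither value passed the test. The share of elements in the direction of the host turned from 53.01% to 41.8% with protein-coding hosts alone and to 41.2% without models inside the element, and none passed. The comparison with lone arms, that of elements with both summits and none in genes, their alternatives, and the strand count without models inside the element were added after the data had been seen. Elements with both summits lay in protein-coding genes more often than those with none (odds ratio 1.58, exact p = 0.0345), while with all genes the odds ratio was 1.25 (exact p = 0.256). A stricter peak threshold was not run, as the list holds no score. Without replicates or scores, a missing summit may lie below the threshold, and line differences could not be examined.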
